A study of Mus musculus with 4 samples.

Results

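Fxyd6 encodes a member of the FXYD family, small proteins that cross the membrane once and bind the sodium pump. It is 1 of the 300 genes of a custom spatial panel that was read in retinal ganglion cells (RGCs), the neurons that carry the output of the retina to the brain. The gene was chosen for its radial pattern. Earlier results of the same data on its level by type and by distance from the centre were known when it was chosen. Those levels are therefore given as a description, without a test. The sides of the retina along the X and Y axes, and the genes that went with Fxyd6 in single cells, were tested.

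The sodium pump (Na,K-ATPase) exports sodium and imports potassium against their gradients, and a firing neuron spends much of its energy on it. FXYD proteins sit beside the catalytic and the accessory subunit of the pump and adjust how it handles these ions. Fxyd6, also called phosphohippolin, is known from neurons of the brain and from the inner ear.

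The study mapped RGCs in 5 wild-type retinas of C57BL/6 mice that were kept without treatment. Each retina was cut en face in sections of 20 µm and imaged with 10x Genomics Xenium, which counts single RNA molecules as fluorescent puncta inside segmented cells. All retinas belong to 1 group, so positions and types were compared within retinas and the retina was the replicate (n = 5). The labels do not say that the retinas came from separate animals, so each p-value measures only the spread between these retinas. Fits with sections as blocks measure the spread between sections of these retinas instead.

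The deposited table held 131379 RGCs of 45 types in 41 sections on 8 slides, with 13127 to 41048 cells per retina. The 42345045 puncta gave medians of 285 to 326 puncta per cell in the 5 retinas, and no cell held fewer than 100 puncta. No cell name occurred in more than 1 section. All cells carried RGC type names. On either side of the radial split in every retina, 6 RGC markers of the panel summed to 78.6 to 88.4 puncta per 1000. There 6 Muller glia markers gave 4.32 to 7.66. Other lists were higher, at 40.9 to 43.8 for 15 amacrine markers, of which Pax6 alone gave 26.6 over all RGCs. The 5 horizontal markers gave 12.5 to 14.1, and the 13 bipolar markers, which share Isl1 with the RGC list, 9.47 to 13.1. Fxyd6 was the only FXYD gene on the panel, and none of the 9 pump subunit genes that were looked for was on it. Levels below are Fxyd6 puncta per 1000 puncta of the panel unless another scale is named.

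Fxyd6 was a gene of low count in a broad set of cells. The table held 119640 Fxyd6 puncta, and 48.5% of the RGCs had at least 1. No punctum was found in 51.5% of the cells, 26.6% held 1, 11.8% held 2, 5.08% held 3, 4.88% held 4 to 9 and 0.139% held 10 or more, with a highest count of 24. A single cell without a punctum was therefore not evidence that the gene was silent there, and levels were summed over cells.

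The level was 2.85 in retina 1, 2.75 in retina 2, 2.64 in retina 3, 2.62 in retina 4 and 3.52 in retina 5 (mean 2.87 ± 0.37 SD, n = 5). Retina 5 lay above the other 4, which were close to each other. Per cell the mean was 0.92 ± 0.14 puncta. Thinned to 100 puncta per cell, the expected share of cells with Fxyd6 was 23.5% on average and 27.3% in retina 5.

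Each retina lay on a pair of slides, and the level on them was close in retina 1 and further apart in the others, untested. At distances of 0.5 to 0.8 from the centre, retina 1 gave 2.88 and 2.83 on its slides, retina 2 gave 2.41 and 2.85, and retina 3 gave 2.11 and 2.92. Retina 4 gave 3.51 on the slide it shared with retina 5 and 2.55 on its other slide. Retina 5 gave 4.75 on that shared slide and 3.99 on the slide it shared with retina 3, where retina 3 gave its 2.92. On either shared slide retina 5 was thus the higher of the pair at this distance. The slides hold different sections of the retina, so slide and position cannot be told apart beyond this match on distance.

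Fxyd6 was highest in 3 photosensitive types and in 1 rare unnamed type. The 4 highest types were 44_Novel at 13.4 ± 2.4 (SD, n = 5), 40_M1dup at 10.3 ± 0.62, 33_M1 at 8.60 ± 0.44 and 31_M2 at 4.77 ± 0.71. M1 and M2 cells are intrinsically photosensitive RGCs, which hold the photopigment melanopsin (Opn4) and serve the body clock and the pupil. The type 44_Novel is called by its deposited name, which says no more of it. The other 41 types lay between 1.69 and 3.56, with a median of 2.71.

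In 44_Novel, the retinas gave 11.9, 15.9, 10.2, 15.1 and 14.2 from retina 1 to retina 5, over 314 cells in all. In 40_M1dup (729 cells) the same order gave 9.89, 10.5, 10.2, 11.2 and 9.61, and in 33_M1 (1468 cells) it gave 8.23, 8.36, 8.30, 9.28 and 8.82. The values of 40_M1dup and 33_M1 did not overlap, and those of 44_Novel and 40_M1dup did, although 44_Novel was the higher of the pair in all 5 retinas. In 31_M2 the values were 4.52, 4.87, 4.25, 4.26 and 5.96, all above those of every retina in 28_FmidiOFF, the next type.

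Each of the 4 steps from 44_Novel down to 28_FmidiOFF exceeded the SD of both neighbours, and none of the other 40 steps in the order of 45 types did. Ranks of the other types should thus be read in broad groups. The order of all types was alike between retinas, with Spearman correlations of 0.80 to 0.92 between pairs of retinas over the 45 types.

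On the other scales the same types led. Cells of 40_M1dup held 3.43 ± 0.18 Fxyd6 puncta, those of 44_Novel 3.11 ± 0.43, those of 33_M1 2.12 ± 0.12 and those of 31_M2 1.52 ± 0.23. At least 1 punctum was found in 84.9% of 44_Novel cells, 82.5% of 40_M1dup cells and 73.8% of 33_M1 cells. After thinning to 100 puncta these shares were 67.6%, 57% and 52.3%, against 14.2% in 42_AlphaOFFS, the lowest type, whose unthinned share was 42.8%. The 3 highest types made up 1.91% of the cells and held 5.53% of the Fxyd6 puncta.

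**Figure D1:**
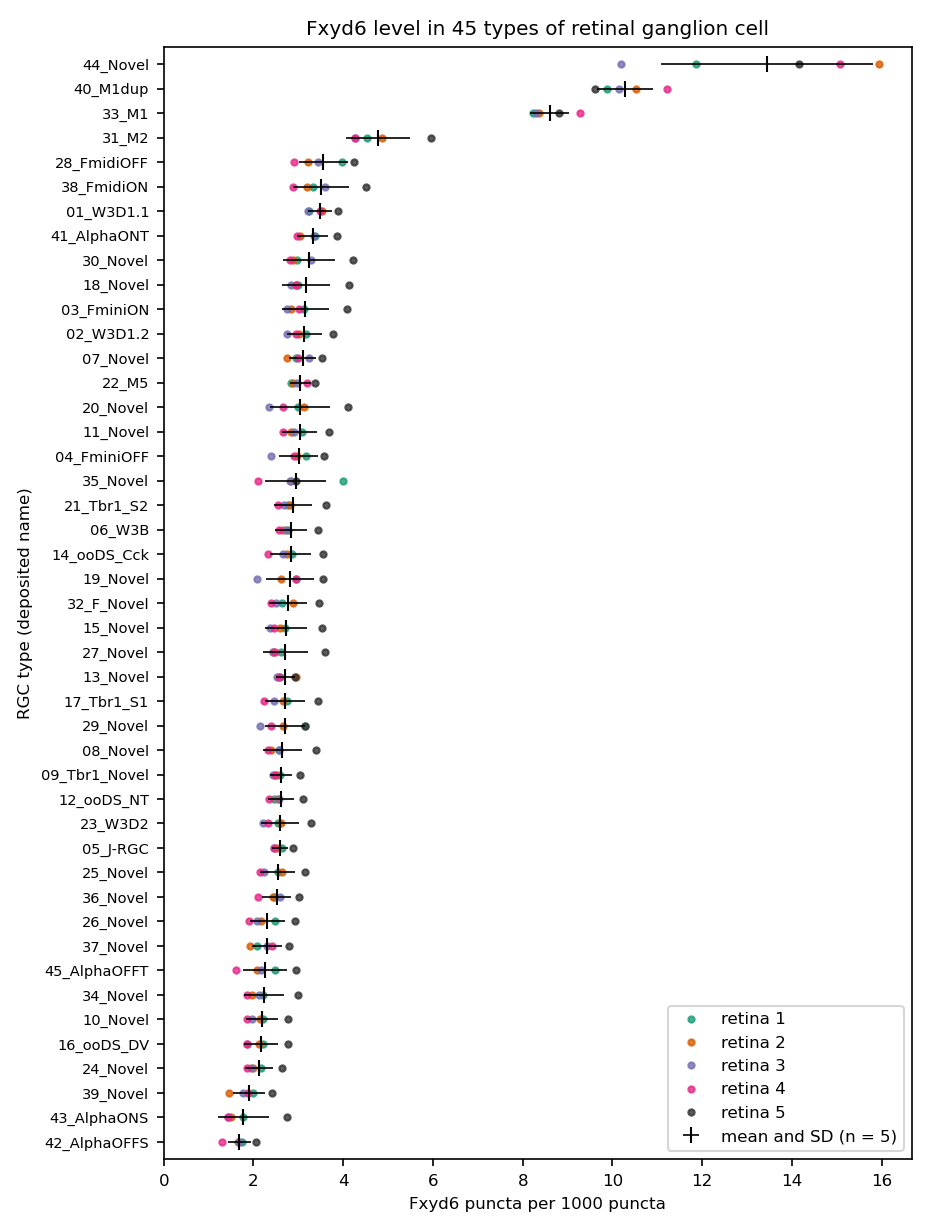
Fxyd6 puncta per 1000 puncta in each of the 45 RGC types, with 1 point per retina and the mean and SD over 5 retinas in black. The types 44_Novel, 40_M1dup and 33_M1 stand apart at means of 13.4, 10.3 and 8.60, 31_M2 follows at 4.77, and the other types form a continuous run from 3.56 to 1.69 in which retina 5 is mostly the highest.

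Below the photosensitive types came 28_FmidiOFF at 3.56 ± 0.55 and 38_FmidiON at 3.50 ± 0.62, a pair of F-RGC types. The lowest 6 were 10_Novel at 2.19 ± 0.35, 16_ooDS_DV at 2.16 ± 0.37, 24_Novel at 2.11 ± 0.31, 39_Novel at 1.90 ± 0.35, 43_AlphaONS at 1.78 ± 0.56 and 42_AlphaOFFS at 1.69 ± 0.27. The sustained alpha cells at the bottom are large RGCs with thick axons. Per cell they held 0.76 ± 0.17 puncta in 42_AlphaOFFS and 0.82 ± 0.30 in 43_AlphaONS, ranks 44 and 37 of the 45 types. Both were thus low on this scale too. Per cell 28_FmidiOFF and 38_FmidiON stood at ranks 9 and 6, and 39_Novel, 16_ooDS_DV and 24_Novel at 40, 38 and 34, but 10_Novel at 21. The type 01_W3D1.1 went from rank 7 by level to 45 per cell, 45_AlphaOFFT from 38 to 7 and 34_Novel from 39 to 15. Below the photosensitive types the order thus depended in part on the scale. The level in 44_Novel was 7.97-fold that in 42_AlphaOFFS.

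Members of a family did not share 1 level. The photosensitive family had a mean of 6.05 ± 0.48, but its member 22_M5 lay at 3.05 ± 0.23, among the bulk of the types. The alpha family had a mean of 2.06 ± 0.44, while its transient ON member 41_AlphaONT lay at 3.32 ± 0.35, the eighth highest of all types. The W3 family gave 3.14 ± 0.32, the F family 3.11 ± 0.44, the Tbr1 family 2.78 ± 0.39 and the direction-selective ooDS family 2.46 ± 0.36. Per cell the order of the alpha and W3 families was reversed, at 0.91 ± 0.24 and 0.85 ± 0.11 puncta. Their median depths were 395 and 263 puncta.

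The type 44_Novel also carried puncta of vessels and glia. In it the endothelial marker Cdh5, a junction protein of vessels, summed to 12.1 per 1000, against 0.298 in the 42 types outside the top 3. The 2 microglia markers gave 8.90 against 0.166, the 6 Muller glia markers 21.6 against 5.57 and the 6 RGC markers 47.8 against 82.8. In 33_M1 the microglia markers gave 1.98 and the Muller glia markers 10.4. No marker of these lists on the panel was at 0 in these types. Their part in the Fxyd6 level was not tested, and cells without such puncta are described next.

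In the 142 cells of 44_Novel with no microglial and no endothelial punctum, Fxyd6 was 9.48 ± 2.7. The same selection left 10.2 ± 0.67 in 636 cells of 40_M1dup, 8.13 ± 0.56 in 1212 cells of 33_M1 and 4.23 ± 0.68 in 1695 cells of 31_M2. In cells with no Muller glia punctum the level was 8.86 ± 2.7 in 44_Novel (40 cells), 11.5 ± 1.6 in 40_M1dup (172 cells), 7.45 ± 0.96 in 33_M1 (369 cells) and 3.08 ± 0.63 in 31_M2 (544 cells). In this last selection the fewest cells in a retina were 4 in 44_Novel and 7 in 40_M1dup, so their means are loose. All RGCs with no Muller glia punctum gave 2.16. In the cells selected in these ways the M1 types stood well above the other cells. There 44_Novel lay within the range of the M1 types, and 31_M2 was closer to the other cells. The selections do not measure how much of the Fxyd6 level goes with glia or vessels.

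Fxyd6 was higher in the outer than in the inner retina. Distances are scaled radii, with the split between centre and periphery at 0.5 and cells out to 1.33. In the centre the retinas gave 2.36, 2.05, 2.47, 1.90 and 2.69 from retina 1 to retina 5. In the periphery they gave 3.01, 3.12, 2.84, 2.96 and 4.48. The periphery was higher in 5 of 5 retinas, and the lowest peripheral value lay above the highest central one. The log2 ratios were 0.35, 0.61, 0.20, 0.65 and 0.74 (mean 0.51 ± 0.22 SD), smallest in retina 3 and largest in retina 5.

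The finer bins showed where the rise lay. In steps of 0.1 from the centre, the means were 2.06, 2.16, 2.14, 2.33, 2.51, 2.83, 3.20, 3.53 and 3.60, with 3.43 at 0.9 and beyond. The mean was flat up to 0.3, climbed from there to 0.8 and then levelled off. The last step was not shared, as retinas 2, 3 and 4 still rose over it. Retina 1 went from 3.47 to 3.32 there, and retina 5 from 4.70 to 2.68 on 54 cells. The step from the bin at 0.5 to the bin at 0.6 was upward in 5 of 5 retinas and the step from 0.8 to 0.9 in 3 of 5. With the mix of types held, the ratio of observed to expected Fxyd6 went from 0.71 ± 0.10 in the innermost bin to 1.21 at 0.7, and stood at 1.15 ± 0.25 in the outermost.

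The retinas did not share 1 curve. Retina 5 rose earliest, to 4.04 at 0.5 and 4.91 at 0.6, and fell to 2.68 in its outermost bin, which held the fewest cells of any retina at that distance (54). Retina 3 had a first high of 2.87 at 0.2 and a second of 3.94 at 0.7. Retinas 1, 2 and 4 climbed more evenly, to 3.32, 3.86 and 3.73 at the edge.

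**Figure D2:**
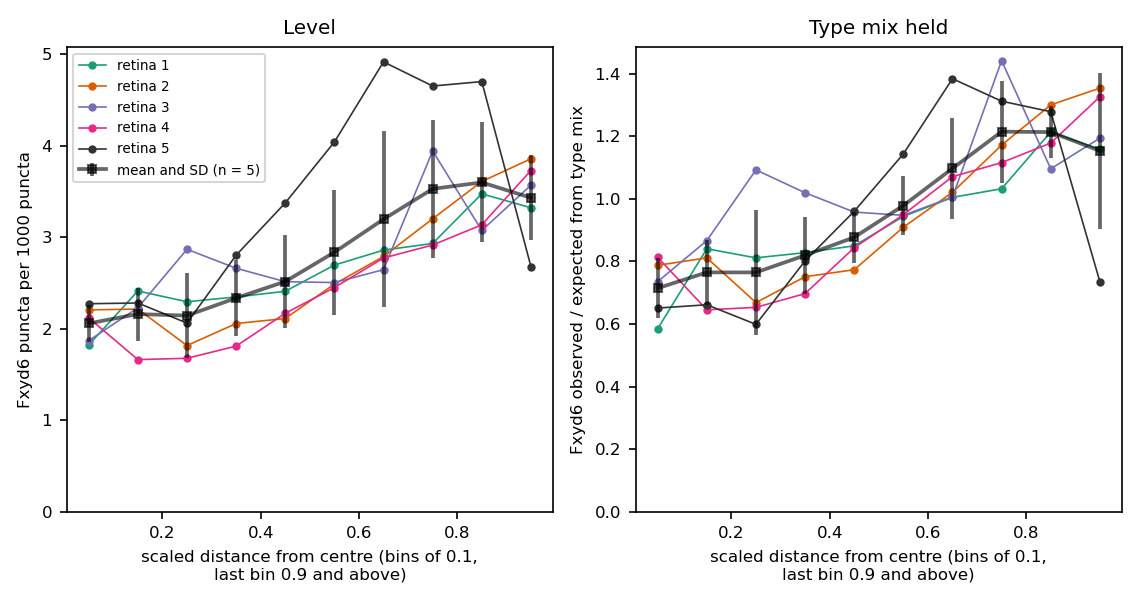
Fxyd6 by scaled distance from the centre in 10 bins, on the left as puncta per 1000 puncta and on the right as observed over expected puncta with each retina's mix of types held, with 1 line per retina and the mean and SD over 5 retinas in black. The mean climbs from 2.06 to 3.60 between the centre and the bin at 0.8, and retina 5 peaks at 4.91 before it drops to 2.68 at the edge.

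Single sections showed the same direction. Of 27 sections with enough cells on both sides of the split, 26 had more Fxyd6 in the periphery, with a median log2 ratio of 0.51 and a range from -0.30 to 1.24. In retina 5 the mean within its 4 sections was 0.34, less than its pooled value of 0.74. Splits at 0.4, 0.6 and 0.7 gave mean log2 ratios of 0.51, 0.49 and 0.47. The ratio was 0.51 per cell, 0.40 for the share of cells after thinning to 100 puncta, and 0.46, 0.46, 0.47 and 0.58 in the quartiles of cells from fewest to most puncta.

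Markers of other cells also differed with distance. The 3 rod markers had a log2 ratio of periphery to centre of 0.36 ± 0.29 and were higher in 4 of 5 retinas. The Muller glia markers stood at 0.19 ± 0.19, higher in 4 of 5, and the endothelial marker at 0.27 ± 0.22, higher in 4 of 5. The RGC markers stood at -0.04 ± 0.02, lower in 5 of 5. In the 65864 cells with no rod punctum, the Fxyd6 log2 ratio was 0.46 ± 0.30 and ran from -0.00 in retina 3 to 0.79 in retina 5. In the 40419 cells with no Muller glia punctum it was 0.41 ± 0.25, from 0.02 in retina 3 to 0.63 in retina 5. In retina 3 the difference was therefore no longer seen in these cells, while the other 4 retinas kept 0.31 or more.

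Within types, the rise was widely shared. All 37 types with at least 50 cells on each side in every retina had a mean log2 ratio above 0, and 25 of them were higher in all 5 retinas. The values ran from 0.32 to 0.69 with a median of 0.49. The 5 largest were 11_Novel at 0.69 ± 0.29, 02_W3D1.2 at 0.63 ± 0.23, 07_Novel at 0.60 ± 0.36, 34_Novel at 0.60 ± 0.21 and 24_Novel at 0.59 ± 0.28. In 11_Novel the means were 2.20 in the centre and 3.57 in the periphery.

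The 5 smallest were 13_Novel at 0.32 ± 0.21, 28_FmidiOFF at 0.32 ± 0.36, 33_M1 at 0.34 ± 0.29, 32_F_Novel at 0.36 ± 0.40 and 43_AlphaONS at 0.37 ± 0.56. These intervals overlap those of the largest, so the order is loose. A ratio and a difference rank the types in other ways, since 33_M1 went from 7.19 ± 0.94 to 9.12 ± 0.92, a step of more puncta per 1000 than in 11_Novel. By family, the photosensitive types had the largest difference at 1.70 ± 0.84 puncta per 1000 and the alpha types the smallest at 0.57 ± 0.79.

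The type 40_M1dup had a high level whose mean moved less with distance than that of 33_M1. It had 24 cells on its thinnest side in 1 retina and so lay outside the count above. Its level was 9.85 ± 1.2 in the centre and 10.4 ± 0.60 in the periphery, a log2 ratio of 0.08 ± 0.19. Over 5 zones from the centre it read 9.96, 10.3, 10.3, 10.3 and 11.2, while 33_M1 read 6.46, 7.39, 8.57, 9.92 and 9.20. The log2 ratios of 40_M1dup and 33_M1 were close in retina 1, at 0.29 and 0.31, and in retina 3, at -0.19 and -0.15. They were apart in retina 2 (0.04 and 0.53), retina 4 (0.06 and 0.52) and retina 5 (0.23 and 0.50). Each type was higher outside in 4 of 5 retinas. The difference between these 2 types in their radial ratio was not tested. The type 44_Novel, with 10 cells on its thinnest side, stood at 0.19 ± 0.56, a spread too wide to give a direction.

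**Figure D3:**
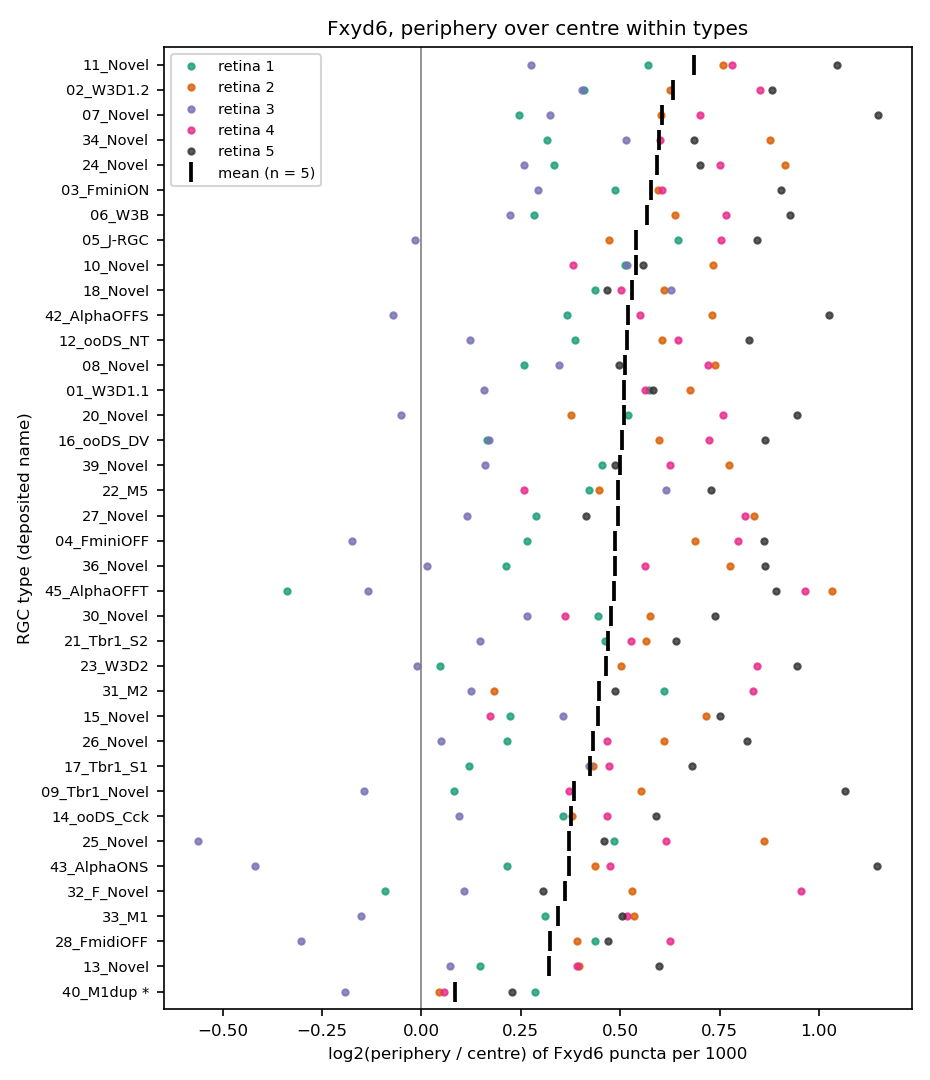
Log2 ratio of Fxyd6 per 1000 puncta in the periphery over the centre within the 37 types that had at least 50 cells per side in every retina, with 1 point per retina and the mean as a black tick, and with 40_M1dup (starred, fewer cells) added below. All 37 means lie between 0.32 and 0.69, retina 3 is often the lowest and retina 5 often the highest, and 40_M1dup lies at 0.08.

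Fxyd6 was also higher on the side of the retina where X was above 0. The table names no anatomical direction for its axes, so none is given. Below 0 the retinas gave 2.54, 2.33, 2.57, 2.40 and 3.03 from retina 1 to retina 5, and above 0 they gave 3.08, 3.05, 2.75, 2.81 and 4.01. The side above 0 was higher in 5 of 5 retinas, although the ranges of the sides overlapped through retina 5 on the low side. The log2 change was 0.28 ± 0.05 (SE), and it passed edgeR's quasi-likelihood test with the retina as a block at an adjusted p of 0.0177. Of the 300 genes, 30 were called along X, or 10% of those tested, with 19 higher where X was above 0 (6.33%) and 11 lower. DESeq2 called 25 higher and 22 lower.

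The call rests on the pairing of sides within retinas. Without retina 2 the log2 change was 0.26 at an adjusted p of 0.0891, and without the retina as a block it was 0.29 at 0.481. With sections in place of retinas as blocks it was 0.21 at an adjusted p of 0.00106. Of 31 sections with enough cells on both sides, 26 were higher where X was above 0, with a median log2 ratio of 0.20. Bins of 0.2 along X gave 2.92, 2.71, 2.63, 2.42, 2.69, 3.18, 3.39 and 3.64 from the most negative to the most positive, so the lowest level lay just below 0 and the positive end stood higher than the negative end.

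The Muller glia markers were also higher where X was above 0, in 5 of 5 retinas, with a log2 ratio of 0.16 ± 0.14. Their summed level ran from 4.67 to 5.90 below 0 and from 5.18 to 7.56 above 0, and 1 of the 6 was called along X. The 2 astrocyte markers moved by 0.11 ± 0.09, in 5 of 5 retinas, and the rod markers by -0.17 ± 0.32. Their part in the Fxyd6 difference was not tested. Among the sodium channel genes of the panel, which open the path that the pump works against, 1 of 9 was called higher and 2 of 9 lower along X, where 6.33% of the panel was called higher and 3.67% lower. Of 11 other cation-entry genes 0 were called higher and 1 lower, and of 4 potassium and 4 sodium-coupled transport genes 0 were called. Lists this short allow no reading against these shares.

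Types shared the X difference in direction. Fxyd6 was higher where X was above 0 in 41 of 43 types tested, with a median log2 change of 0.31, and 33 types had an unadjusted p under 0.05. The types come from the same retinas and sections, so these counts are not separate results. The share of all pairs with an unadjusted p under 0.05 is not given here. After adjustment over all 11379 pairs of type and gene it was called in 3 types, against 0.281% of all pairs called. These 3 were 23_W3D2 at 0.49 ± 0.10 (SE, edgeR adjusted p = 0.00749), 06_W3B at 0.41 ± 0.07 (adjusted p = 0.0039) and 24_Novel at 0.38 ± 0.09 (adjusted p = 0.028). The count is not firm: without retina 1 or 2 it was 0, without retina 4 it was 1, and without retina 3 or 5 it was 7.

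In 06_W3B, a local-motion type, the values below 0 were 2.31, 2.24, 2.49, 2.33 and 2.67 from retina 1 to retina 5, and above 0 they were 3.11, 2.97, 3.09, 2.80 and 4.28, without overlap. In 23_W3D2 the low side gave 2.08, 1.87, 1.92, 2.03 and 2.79 and the high side 2.85, 3.15, 2.64, 2.60 and 3.72. In 24_Novel they were 1.90, 1.57, 1.78, 1.60 and 2.38 below 0 and 2.40, 2.29, 2.18, 2.06 and 2.96 above 0. In the last pair of types the sides overlapped through retina 5. The photosensitive types with the highest level showed little difference, with log2 changes of 0.01 ± 0.11 in 33_M1 and -0.00 ± 0.18 in 40_M1dup.

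Along Y no difference was found. The retinas gave 2.97, 2.88, 2.76, 2.60 and 2.95 below 0 and 2.74, 2.56, 2.55, 2.65 and 3.88 above 0. Retinas 1 to 3 were lower above 0, and retina 5 was higher there by a log2 ratio of 0.40. The log2 change was -0.00 ± 0.09 (SE, edgeR adjusted p = 0.981). Of the 300 genes, 0 were called along Y by edgeR (31 had an unadjusted p under 0.05, and DESeq2 called 6), which is 0%. Within types, Fxyd6 was called along Y in 0 of 42, against 0.334% of pairs called, and in 0 of them was the unadjusted p under 0.05. The bins along Y were high at both ends, at 3.63 and 4.14, and lowest in the middle, at 2.42.

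The radial rise was not found to differ between the sides of either axis. Its difference between the Y sides was 0.10 ± 0.13 on the log2 scale (SE, edgeR adjusted p = 0.773) and between the X sides 0.13 ± 0.11 (adjusted p = 0.993), with 0 of 300 genes (0%) called in either test. In the centre the X sides had means of 2.16 and 2.43, a log2 ratio of 0.17 ± 0.06 (SD), and in the periphery 2.92 and 3.57, a ratio of 0.29 ± 0.15. Both ratios were above 0 in 5 of 5 retinas.

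By direction around the centre, the periphery was lowest at 180 to 225 degrees, counted from the positive X axis towards positive Y, with 2.23 ± 0.41. It was highest at 270 to 315 degrees with 3.74 ± 0.58 and at 45 to 90 degrees with 3.67 ± 0.96. The radial log2 ratio ranged from 0.11 ± 0.32 at 180 to 225 degrees, where 3 of 5 retinas were higher outside, to 0.81 ± 0.55 at 45 to 90 degrees. Some sectors held few cells in a retina (35 at the least), and no sector was tested against another.

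**Figure D4:**
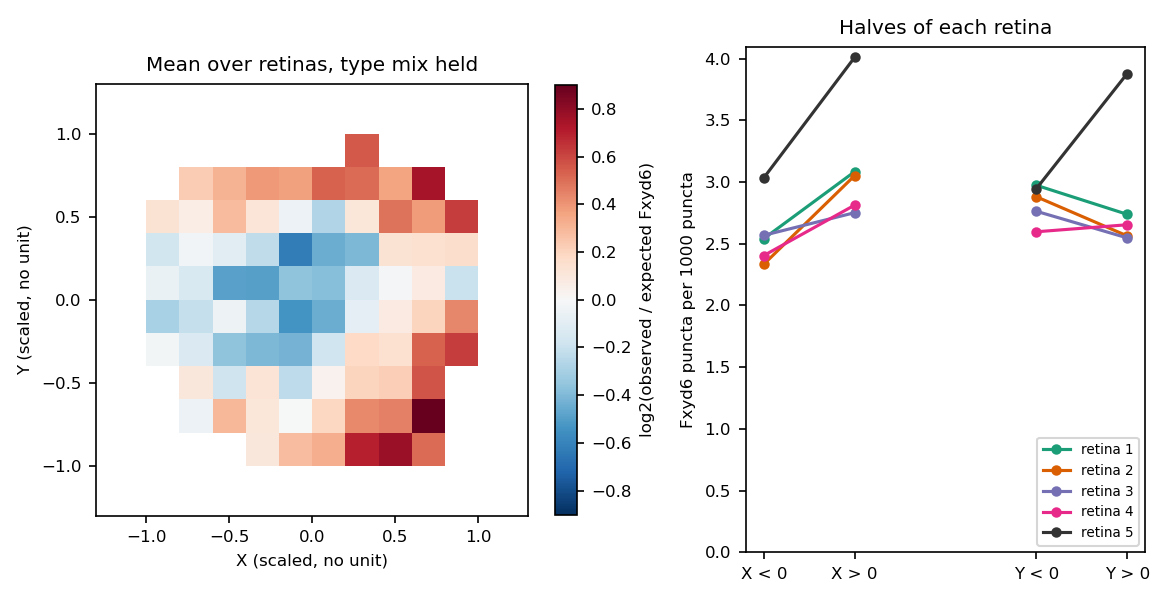
Left, Fxyd6 over the retina as log2 of observed over expected puncta with the mix of types held, in squares of 0.2 scaled units, each a mean over the 3 to 5 retinas with enough cells there. Right, Fxyd6 per 1000 puncta on either side of 0 along X and along Y, with 1 line per retina. The map is low around the centre and towards negative X and mostly high at the rim of positive X, all 5 lines rise along X, and along Y only the lines of retinas 4 and 5 rise.

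Cells with at least 1 Fxyd6 punctum were compared with cells without one. The 63728 cells with it had a median of 333 puncta and the 67651 without it 272, so depth differed between them. Over all cells edgeR called 182 of the 299 other genes, or 60.9%, with 77 higher and 105 lower in cells with Fxyd6. With so large a share called, a single call says little, and sizes are given.

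The genes most raised over all cells were in part those of the types above. Opn4 was higher by 1.12 ± 0.07 on the log2 scale (SE, edgeR adjusted p = 4.12e-06). It stood at 0.745, 0.804, 0.738, 0.763 and 0.673 per 1000 in cells with Fxyd6 from retina 1 to retina 5 and at 0.404, 0.309, 0.390, 0.313 and 0.302 in cells without it, with no overlap. Tmem119, a microglial membrane protein, followed at 0.71, Tac2, the precursor of the neuropeptide neurokinin B, at 0.67, Zcchc12 at 0.64 and Cdh5 at 0.63. Cd24a, a surface glycoprotein, stood at 0.59, Cd9, a tetraspanin, at 0.48 and Col9a1, a collagen chain, at 0.47. The 8 most lowered were Gsg1 at -0.74, Otx2 at -0.53, Gabrr1 at -0.52, Rpgrip1 at -0.50, Vsx1 at -0.49, Opn1sw at -0.49, Pcp2 at -0.46 and Gnb3 at -0.42. Otx2, Vsx1 and Pcp2 are genes of bipolar cells, and Opn1sw is a cone opsin.

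Holding type, radial side and depth class changed the list. In cells matched on these, limma called 175 of 299 genes, or 58.5%, with 94 higher and 81 lower, and 138 genes were called in both comparisons. Opn4 no longer led. The 8 most raised were Cdh5 at 0.85 ± 0.06 (SE, limma adjusted p = 1.42e-06), Tac2 at 0.66 ± 0.04, Tmem119 at 0.63 ± 0.13, Igfbp7 at 0.59 ± 0.04, Cd9 at 0.59 ± 0.04, Slc1a3 at 0.49 ± 0.04, Lmo2 at 0.49 ± 0.03 and Cp at 0.49 ± 0.02. Slc1a3 is the glutamate transporter of Muller glia, Igfbp7 a secreted binding protein of vessels, and Cp the copper-carrying ferroxidase ceruloplasmin.

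For Cdh5 the matched log2 ratios were 0.82, 0.89, 0.66, 0.82 and 1.06 from retina 1 to retina 5. Its unmatched level was 0.340, 0.326, 0.494, 0.415 and 0.399 per 1000 in cells with Fxyd6 and 0.218, 0.204, 0.341, 0.264 and 0.244 in cells without it, higher in each retina. The 8 most lowered in matched cells were Gsg1 at -0.46, Otx2 at -0.35, Gnb3 at -0.29, Opn1mw at -0.27, Guca1b at -0.25, Spp1 at -0.21, Coch at -0.19 and Cnga1 at -0.18. Opn1mw, Guca1b and Cnga1 are genes of photoreceptors, and Spp1, osteopontin, marks alpha RGCs.

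By marker list, Fxyd6 went with genes of glia and with the endothelial gene Cdh5. The horizontal list and the list of pericytes and smooth muscle are not given here. In matched cells all 6 Muller glia markers were called higher, with a median log2 change of 0.42, as were both astrocyte markers, both microglia markers and the 1 endothelial marker. Over all genes tested the median was 0.00, with 31.4% called higher and 27.1% called lower. Of 15 amacrine markers 9 were higher and 0 lower, and of 13 bipolar markers 1 was higher and 6 were lower. Of 6 RGC markers 1 was higher and 3 were lower. For the amacrine, bipolar and RGC lists the share called in either direction was close to the 58.5% of the panel. The lists were chosen with earlier results of these data known, and the counts are descriptions.

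**Figure D5:**
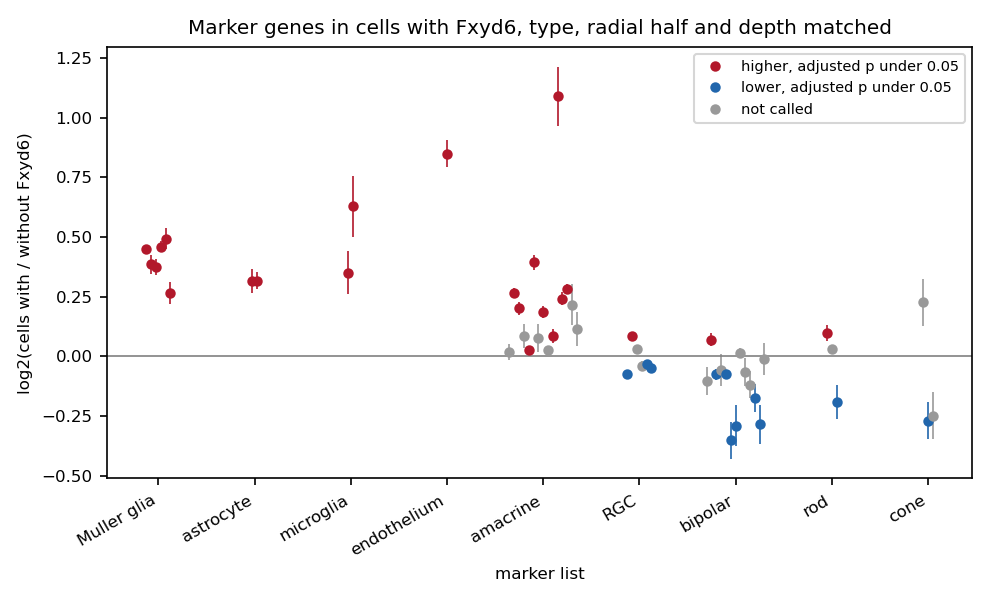
Log2 ratio of each marker gene in cells with over cells without Fxyd6, with type, radial side and depth class matched, grouped by marker list, with points and bars for the mean and SE over 5 retinas and colour for the call at an adjusted p under 0.05 (limma). All Muller glia, astrocyte, microglia and endothelial genes lie above 0, most bipolar genes lie at or below 0, and the highest amacrine point is Sst at 1.09, which has fewer puncta in all (992) than the genes named by rule and is named after its value was seen.

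The level of Fxyd6 climbed with the number of Muller glia puncta in the cell. It was 2.16 ± 0.17 in cells with none, 2.54 ± 0.22 in cells with 1, 2.96 ± 0.34 in cells with 2 or 3 and 4.15 ± 0.49 in cells with 4 or more. The lowest retina of the last class, at 3.81, lay above the highest of the first, at 2.38. With types held, the ratio of observed to expected Fxyd6 was 0.76, 0.89, 1.04 and 1.39 in these classes, with SDs of 0.03 to 0.05. The median depth of the classes rose from 254 to 374 puncta.

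Other lists gave smaller ranges, apart from vessels and microglia. With types held, cells with no microglial or endothelial punctum stood at 0.98 and the 1116 cells with 4 or more at 1.85 ± 0.10. For astrocyte markers the range was 0.96 to 1.37 and for rod markers 0.95 to 1.1. For bipolar markers the ratio went down, from 1.02 in cells with at most 1 punctum to 0.94 in those with 10 or more. These classes of cells differ in depth and position, whose part in the ranges was not tested. Fxyd6 in cells with none of the Muller glia puncta was still 2.16 per 1000.

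The other genes of ion handling on the panel went both ways with Fxyd6 between cells, and their counts are read against the panel, of which 31.4% was called higher and 27.1% lower in matched cells. Of 9 sodium channel genes 1 was higher and 5 were lower in matched cells, with a median of -0.04. Scn2b, a beta subunit, was higher by 0.10 ± 0.04, and Scn8a, the channel of the spike-initiating axon segment, stood at -0.07 ± 0.01, both on the log2 scale. Of 11 other cation-entry genes 3 were higher and 5 lower, of 4 potassium channel genes 0 were higher and 1 was lower, and of 4 sodium-coupled transporters 2 were higher and 1 was lower. Apart from Slc1a3 these changes were at most 0.10 on the log2 scale.

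The genes most like Fxyd6 across the 45 types were Nos1, which makes nitric oxide, with a Pearson r of 0.91, Cd24a with 0.90, Rlbp1, a retinoid carrier of Muller glia, with 0.89, Apoe, the lipid carrier, with 0.89 and the transcription factor Nfix with 0.88. Among the least like were Scn1a at -0.84, Scn8a at -0.81, Grin1 at -0.73 and Kcnc1 at -0.66, which encode channel and receptor subunits of fast firing and excitation. The types share sections and puncta totals, so these values describe the pattern only. With the 3 highest types set aside, a choice made after seeing the data, 42 types were left. The 5 most like over these were Apoe at 0.87, Cp at 0.87, Sparc at 0.87, Rlbp1 at 0.86 and Nfix at 0.84. Grin1 came to -0.63, the lowest of all, Scn8a to -0.57, Kcnc1 to -0.52 and Scn1a to -0.38.

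Across the 10 radial bins with the type mix held, the 5 genes most like Fxyd6 were Kcnip1, a potassium channel partner, at 0.93, Nell1 at 0.92, the growth factor Igf1 at 0.92, the receptor Gpr37 at 0.91 and Aqp4, the water channel of glial endfeet, at 0.90. The least like were Atp2b4, a plasma membrane calcium pump, and Jam2, both at -0.96, Cacna1i, a calcium channel, at -0.95, Prph, an intermediate filament, at -0.94 and Pcdh8 at -0.93. The bins lie along 1 line in the same sections, so any gene with a steady slope scores high in size. The correlation does not measure how large a rise is. From inner to outer bins the log2 difference was 0.62 for Fxyd6. It was smaller for Kcnip1 (0.12), Nell1 (0.15), Igf1 (0.24) and Gpr37 (0.44), and larger for Aqp4 (0.75).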

How the data were processed

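The study measured RNA in RGCs of 5 retinas. Per the file headers the authors deposited 1 table with a count of puncta per gene and cell, with type names, shape, slide, section and scaled positions. Segmentation, filters and the genome build are not given in the sources used here. The 4 labelled samples are pairs of slides and could not be tied to table rows. The gene, lists, rules and alternatives were chosen with earlier results of these data known.

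Counts were summed per retina and side. Sides along X and Y (split at 0), their interaction with the radial side (split at 0.5) and cells with and without Fxyd6 were tested with edgeR 4.0.16 (TMM, filterByExpr, quasi-likelihood, retina as a block), with Benjamini-Hochberg adjustment over all genes, or all pairs of type and gene, at a threshold of 0.05. Pairing comes from sides of the same retina. Matched cells shared type, radial side and 1 of 5 depth classes, with at least 5 cells of each kind, and were compared with limma 3.58.1 on per-retina log2 ratios (pseudocount 0.01). DESeq2 1.42.0 was an alternative. Fits were tested on simulated data. Expected Fxyd6 is the sum over cells of the rate of the cell's type in its retina times its puncta. Intervals reflect spread between retinas. Named genes were the 8 largest changes in each direction that were called, moved alike in 5 retinas and had at least 1000 puncta. Named types were the 6 highest and lowest and the 5 with the largest and smallest radial ratio. One gene that the rule on likeness across types names is not reported here.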

Additional observations from a re-analysis of the deposited data

Results flagged for a closer look

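Of 36 groups of 5 retinas screened with Dixon's test, 6 held a retina far from the nearest other. Chance alone gives about 1 in 20, and the groups share cells. Retina 5 stood at 3.52 Fxyd6 puncta per 1000 over all RGCs, with the nearest retina at 2.85. It also stood apart in 43_AlphaONS, at 2.75 against 1.77, in the radial bin at 0.5, at 4.04 against 2.69, and in the bin at 0.6, at 4.91 against 2.86. Retina 3 had a radial log2 ratio of -0.30 in 28_FmidiOFF, where the nearest retina stood at 0.39. In the bin at 0.1, retina 4 stood at 1.66 and the nearest retina at 2.21.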

How the results depend on the processing

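The Fxyd6 change along X kept its direction under all 13 alternatives, at log2 changes of 0.21 to 0.33, and its call under 11; without the replicate block it was 0.29, without retina 2 it was 0.26, and leaving out 1 retina at a time gave 0.25 to 0.33. Leaving out the block changed no call of Fxyd6 along Y or in its radial difference between sides. Genes called along X numbered 47 with DESeq2, 1 without the replicate block, 57 with section blocks, 3 with the same mix of types, and 2 to 43 leaving out 1 retina. Along Y they numbered 6 with DESeq2, 64 with section blocks, 1 more than 0.2 from the split, and 0 to 2 leaving out 1 retina. Genes called with Fxyd6 detection fell to 12 without the replicate block and were 148 to 180 in matched cells over 10 alternatives. Types called along X numbered 0 to 7 leaving out 1 retina. The cause of these differences was not tested, beyond the fewer retinas. The mean radial log2 ratio was 0.40 to 0.58 over 14 alternatives, of which those without rod or Muller glia puncta, like the radial-bin mix along X and Y and the match on type and section, were chosen after seeing the data. Depth limits single cells, of which 51.5% held no Fxyd6 punctum, and the outermost bin, with 54 cells in retina 5.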
